A study of Arabidopsis thaliana with 6 samples.

Results

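The transcripts described here are the pericentromeric long intergenic noncoding RNA (lincRNA) units of Arabidopsis thaliana, those placed no more than 3 Mb from the position taken as the centre of each chromosome (15 Mb on chromosome 1, 4 Mb on chromosome 2, 14 Mb on chromosome 3, 4 Mb on chromosome 4 and 12 Mb on chromosome 5). A unit is a transcript named by chromosome and a running number, such as AT3TU039960. Of 4499 such units on the array, 1141 were members, represented by 3388 probes. The other 3351 units lay outside the windows and are called arm units, and 7 units inside the windows were left out by name. All 7 were past the threshold used here, 5 of them higher and 2 lower in the mutant, so the counts below leave out large changes known from these data. A start coordinate was stated for 272 members. The other 869 were placed by linear interpolation on the unit number between the nearest stated starts, which lay a median of 208 kb apart for these units and at most 970 kb. Stated starts rose with unit number at every step on every chromosome, but no source used here names the genome build of the starts. The label pericentromeric therefore rests on position alone, and the set centres were not checked against an assembly. Neither probe sequences nor unit ends were used here.

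Pericentromeres are the regions flanking the centromeres, in Arabidopsis rich in transposons and packed mostly as heterochromatin with heavy DNA methylation and few genes. RDR2 (RNA-DEPENDENT RNA POLYMERASE 2) copies short transcripts of RNA polymerase IV into double-stranded RNA, which DCL3 cuts into small interfering RNAs that guide RNA-directed DNA methylation. In the pericentromere much of the methylation is also kept by other pathways, through DDM1 and the methyltransferases MET1 and CMT2.

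The samples were inflorescences with open flowers, buds and some very young siliques from 4-week-old plants of the Col-0 ecotype, 3 wild-type samples and 3 of an rdr2 mutant. The series title asks which lincRNAs RDR2 regulates. The protocols name the allele rdr2-1, while the genotype entries of the 3 mutant samples carry 3 different allele numbers, and the 3 were taken as 1 group as titled. Each sample was hybridised to 1 single-colour array, and nothing states whether the samples of a group came from separate plantings, so p-values measure only the spread between these samples.

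RDR2 itself had scaled signals of 395, 381 and 454 in wild type and of 61.4, 62.0 and 66.4 in the mutant, where scaled signal is the processed intensity with the 75th percentile of the array's reliably measured probes set to 100. It was 6.47-fold lower in the mutant (log2 fold change -2.69, SE 0.125, limma adjusted p = 0.000168), on 3 of 3 probes. The arrays were of unequal brightness. That 75th percentile was at intensities of 367, 305 and 371 in wild type and of 162, 155 and 285 in the mutant. Wild-type replicates 1 and 2 shared a slide, as did mutant replicates 1 and 2, and no slide held both groups, so slide and genotype cannot be told apart. Arrays of a shared slide correlated at 0.995 and 0.994, other pairs within a group at 0.969 to 0.977 and wild-type with mutant arrays at 0.947 to 0.957, over 2369 probes. In whole inflorescences, fewer cells of a type and less RNA per cell cannot be told apart. The floral organ, tapetum, pollen, leaf and root marker lists had no gene on the array. Of 10 carpel, ovule and seed markers 3 were on it, of which FUS3, a regulator of seed maturation, was lower in the mutant (log2 fold change -1.79, limma adjusted p = 0.000938), while LEC1 (-0.08, adjusted p = 0.808) and ABI3 (-0.84, adjusted p = 0.272) did not pass. Whether tissue makeup had a part in the differences below was not tested.

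Most pericentromeric units gave little signal in inflorescences of either genotype. No probe was well above background on any array for 281 of 1141 units (24.6%, against 26.4% of arm units). For another 521 (45.7%) some probe rose above background, but on all 3 arrays of neither group. The remaining 339 units (29.7%, against 29.3% of arm units) could be tested, and 199 of them had a probe above background on all 6 arrays. By probe, 31.4%, 30.9% and 15.3% were above background on wild-type arrays 1 to 3, and 9.56%, 9.83% and 16.9% on mutant arrays 1 to 3. Wild-type arrays 1 and 2 detected about as many probes as each other and far more than wild-type array 3, which lay below mutant array 3. The arm probes followed the same arrays, from 32.2% on wild-type array 1 to 10.2% on mutant array 1. Counting instead probes above the 99th percentile of the 77 negative control spots gave 29.4%, 47.0% and 10.4% in wild type and 22.8%, 17.3% and 42.8% in the mutant. The order of the arrays depended on the criterion. Under the first criterion 35 members (3.07%, against 2.78% of arm units) had a probe on all 3 wild-type arrays and none on any mutant array. The reverse held for 1 member, AT3TU040390 (0.088%), and for 2 arm units (0.060%).

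A few pericentromeric units were bright. Among the 265 probes above background on all 6 arrays, wild-type scaled signals had a median of 11.6, quartiles of 6.71 and 25.9 and a highest value of 4436, and 23 probes exceeded 100. AT3TU041570, on chromosome 3 between the stated starts 11849460 and 11924934, had signals of 4327, 4987 and 3994 in wild type and of 3769, 3582 and 3267 in the mutant. The groups did not overlap, but the difference did not pass the test (log2 fold change -0.32, limma adjusted p = 0.170). AT2TU004830, on chromosome 2 between 1218632 and 1414514, had signals of 1956, 2148 and 2090 in wild type and of 1000.1, 981 and 991 in the mutant. It fell by 1.06 on the log2 scale (adjusted p = 0.00413), and its other 2 probes fell too (-0.88, adjusted p = 0.00669, and -0.82, adjusted p = 0.0105). AT4TU005280, on chromosome 4 between 924723 and 1495560, had 392, 304 and 386 in wild type and 789, 797 and 534 in the mutant. It was higher in the mutant (log2 fold change 0.96, adjusted p = 0.0410). Its other tested probe was far dimmer, with 2.00, 1.80 and 2.63 in wild type and 2.83, 3.45 and 2.06 in the mutant. That probe did not pass (0.36, adjusted p = 0.340).

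The other 5 of the 8 brightest units did not pass the test. AT4TU017870, starting at 5351200 on chromosome 4, had 376, 278 and 440 in wild type and 844, 848 and 121 in the mutant. The pair of mutant arrays that shared a slide lay above all wild-type arrays and mutant array 3 lay below them, which left the comparison at adjusted p = 0.816. AT2TU011180 had 386, 381 and 276 in wild type and 638, 725 and 291 in the mutant (adjusted p = 0.328), with mutant array 3 inside the wild-type range. AT1TU049290 had 244, 311 and 479 in wild type and 449, 533 and 703 in the mutant (log2 fold change 0.74, adjusted p = 0.156), with overlapping groups. AT5TU036490 and AT5TU044080 had log2 fold changes of 0.13 (adjusted p = 0.664) and -0.11 (adjusted p = 0.533).

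The units nearest to the set centres were dim in both genotypes, and none of the 5 passed. AT2TU012710, placed 0.011 Mb from the centre of chromosome 2, had signals of 4.37, 5.28 and 6.14 in wild type and of 3.84, 3.75 and 3.41 in the mutant (log2 fold change -0.51, limma adjusted p = 0.0947). On chromosome 3 AT3TU047570 had 6.21, 4.07 and 1.95 in wild type and 9.90, 9.23 and 11.1 in the mutant. Its mutant arrays all lay above the wild-type arrays, at a log2 fold change of 1.46 (adjusted p = 0.0799). AT5TU041440 had 6.41, 6.94 and 1.60 in wild type and 0.782, 0.781 and 1.55 in the mutant, where no array was above background (at least 1.88-fold lower, adjusted p = 0.0902). The groups overlapped in AT1TU050610 (-0.76, adjusted p = 0.425) and nearly touched in AT4TU013750 (-1.08, adjusted p = 0.165).

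Of the 339 tested pericentromeric units, 21 (6.19%) were higher and 26 (7.67%) lower in the mutant at a limma adjusted p of 0.05, each unit by its probe with the smallest p. Over all 1862 tested transcripts 5.85% were higher and 10.7% lower, and over the 981 tested arm units 5.30% and 9.48%, so the shares among members were near the background. The median fitted log2 fold change by that probe was -0.58 over the members, -0.51 over arm units and -0.41 over all transcripts. A positive value was found in 97 of the 339 members, 263 of the 981 arm units and 511 of the 1862 transcripts. With a bound in place of the fitted value wherever a group had no array above background, these medians were -0.46, -0.42 and -0.37. Called members of at least 2-fold then numbered 12 higher and 12 lower, against 25 and 35 of the 981 arm units and 60 and 72 of the 1862 transcripts. Counted by probe, 29 of 473 member probes (6.13%) were higher and 35 (7.40%) lower, against 5.11% and 8.49% of all 3345 tested probes. The fitted median over member probes was -0.40, against -0.26 over all tested probes (-0.35 and -0.23 with bounds). Without wild-type replicate 1, 2 or 3 the member units called higher and lower numbered 10 and 12, 8 and 9, and 23 and 136. Without mutant replicate 1, 2 or 3 they numbered 8 and 14, 8 and 11, and 40 and 36. A fit that took slide as a random block called 6 and 8. The split of higher to lower calls depended on the scaling too, with 19 higher and 14 lower after quantile normalization and 19 and 9 after scaling on all probes.

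**Figure D1:**
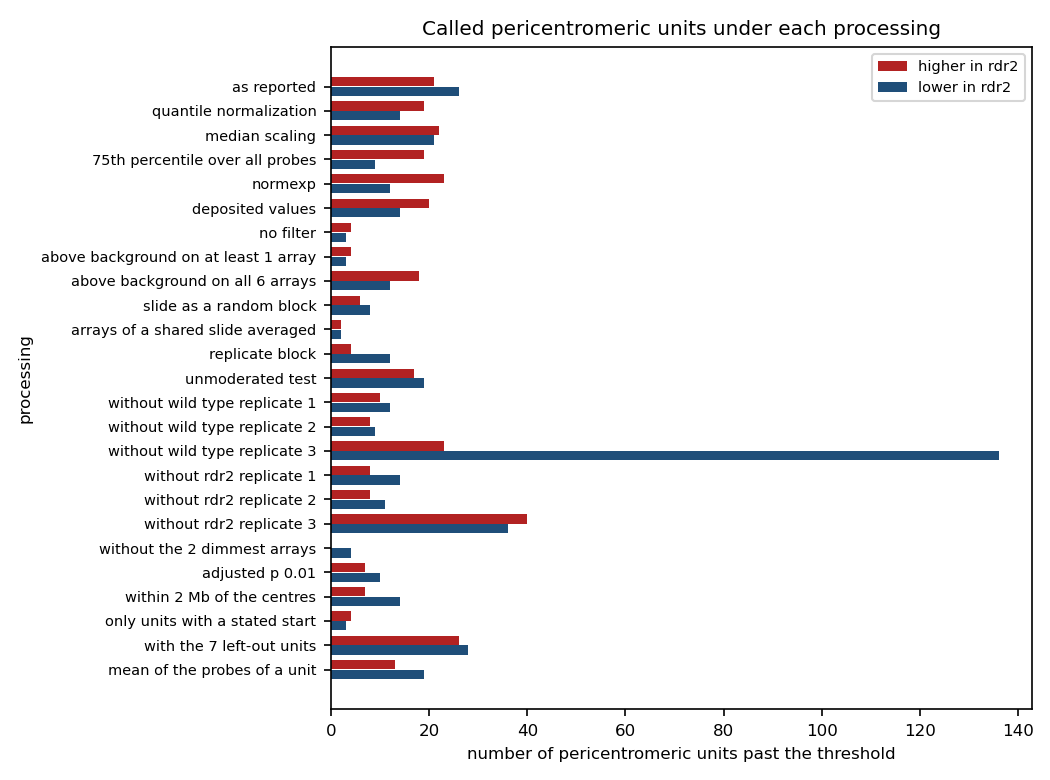
Number of pericentromeric units called higher or lower in the mutant (limma, adjusted p 0.05) under the main setting and each alternative. The main setting gave 21 higher and 26 lower, and leaving out wild-type replicate 3 gave 23 and 136.

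The called units were spread over all 5 chromosomes. Chromosome 1 had 6 higher and 8 lower of 77 tested units, chromosome 2 had 4 and 4 of 70, chromosome 3 had 3 and 3 of 66, chromosome 4 had 4 and 4 of 62 and chromosome 5 had 4 and 7 of 64. The medians of the fitted log2 fold change per chromosome ran from -0.66 on chromosome 5 to -0.48 on chromosome 2, all negative. By distance from the set centre, the innermost 1 Mb held 58 tested of 236 units (24.6%), with 4 higher and 1 lower. From 1 to 2 Mb there were 3 higher and 13 lower of 142 tested units, and from 2 to 3 Mb 14 higher and 12 lower of 139. These bands were not compared by a test. At the edge of the windows, AT2TU022300, just inside at 2.97 Mb, had a log2 fold change of -0.25 (adjusted p = 0.338), and AT5TU050610, just outside at 3.01 Mb, of -0.60 (adjusted p = 0.203).

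**Figure D2:**
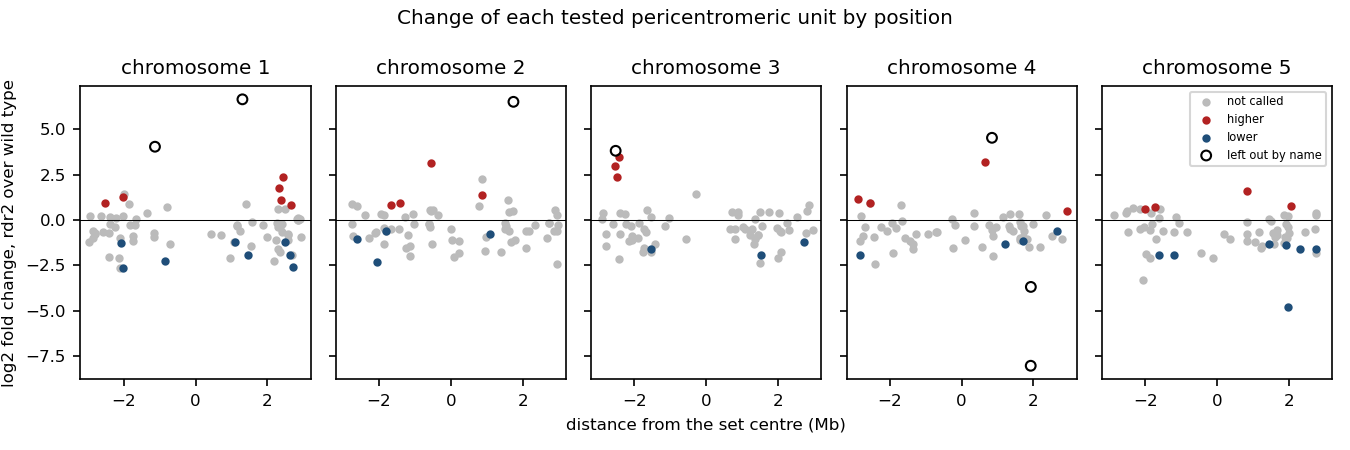
Log2 fold change (mutant over wild type) of each tested pericentromeric unit, by the probe with the smallest p and without bounds, against distance in Mb from the set centre of its chromosome. Coloured points are the called members, 21 above and 26 below 0, on all 5 chromosomes, and open circles are the 7 units left out by name.

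Most units that rose had a measurable wild-type level, as did most tested members. By the probe with the smallest p, 15 of the 21 were above background on all 3 wild-type arrays, with rises of 1.40-fold to 3.45-fold. Another 4 were so on 1 or 2 of them and 2 on none. Of the 339 tested members, 333 had some probe above background on all 3 wild-type arrays and 206 on all 3 mutant arrays. AT3TU040390, between 11480457 and 11592188 on chromosome 3, had scaled signals of 0.548, 0.311 and 0.288 in wild type, none above background, and of 3.23, 4.87 and 4.44 in the mutant. It was at least 2.86-fold higher in the mutant (limma adjusted p = 0.00213), a bound set against the lowest signal well above background on each dim array. P-values beside bounds come from the fit to the signals as measured, those below background included, and do not test the bounds. The other 2 probes of AT3TU040390, also dim on every wild-type array, were at least 4.99-fold (adjusted p = 0.00467) and 10.2-fold (adjusted p = 0.0102) higher. AT4TU015430, between 4620775 and 4659864 on chromosome 4, had 0.731, 0.419 and 0.630 in wild type and 5.85, 5.94 and 4.37 in the mutant. It was at least 3.70-fold higher (adjusted p = 0.00161), on 1 of its 3 tested probes, the others standing at 0.53 (adjusted p = 0.155) and 1.61 (adjusted p = 0.238). Both calls were lost without the 2 dimmest arrays, mutant replicates 1 and 2 (adjusted p = 0.0802 and 0.0840).

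Among units detected on part of the wild-type arrays, AT3TU039960 was 1 of those with mutant arrays above the wild-type arrays on every tested probe. It starts at 11470490 on chromosome 3 and had signals of 2.92, 1.43 and 2.95 in wild type and of 15.6, 14.8 and 25.5 in the mutant. It was 7.81-fold higher (log2 fold change 2.97, SE 0.372, limma adjusted p = 0.00769), with 3.64 (adjusted p = 0.00882) and 3.17 (adjusted p = 0.0115) on its other probes. AT2TU011100, between 2985471 and 3648728 on chromosome 2, had 4.50, 3.01 and 0.685 in wild type and 20.1, 19.98 and 16.6 in the mutant. On its single tested probe the rise was 3.16 on the log2 scale (SE 0.703, adjusted p = 0.0407). Wild-type replicate 3 was the low array here: without it the log2 fold change was 2.36 (adjusted p = 0.00417), and without wild-type replicate 1, wild-type replicate 2 or any mutant array the call was lost (adjusted p = 0.0513 to 0.134). AT1TU057150, between 17279966 and 17631758 on chromosome 1, had 1.27, 1.37 and 2.67 in wild type and 9.48, 8.54 and 7.55 in the mutant (2.35, adjusted p = 0.00872). Its second tested probe stood at 0.25 (adjusted p = 0.542), so the probes of this unit disagreed.

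Several units above background on all 6 arrays rose by smaller factors. AT1TU056720 lay in the same interval of chromosome 1 and went from 4.78, 4.80 and 2.80 in wild type to 12.8, 13.3 and 15.5 in the mutant. That was a 3.45-fold rise (log2 fold change 1.79, SE 0.249, limma adjusted p = 0.0102). AT1TU056980, in the same interval again, went from 7.45, 8.09 and 6.46 to 14.7, 16.9 and 15.2 (1.09, adjusted p = 0.00803), with 2 of 3 probes called. All 3 of these units of chromosome 1 had mutant arrays clear of the wild-type arrays, as the rule for the named rises required. AT2TU015290, between 4797872 and 4871290 on chromosome 2, had 10.3, 9.41 and 8.50 in wild type and 26.4, 25.2 and 20.8 in the mutant. Its 3 probes gave log2 fold changes of 1.36 (adjusted p = 0.00525), 1.46 (adjusted p = 0.00525) and 1.20 (adjusted p = 0.0492).

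AT5TU044040, between 12780691 and 13060201 on chromosome 5, had signals of 19.97, 15.8 and 18.2 in wild type and of 64.1, 64.7 and 39.6 in the mutant (1.61, limma adjusted p = 0.0115). Its second probe stood at -0.01 (adjusted p = 0.990), and mutant array 3 lay well below the pair that shared a slide. AT4TU004050 (1.17, adjusted p = 0.0217) and AT2TU008740 (0.95, adjusted p = 0.0352) had a single tested probe each. The remaining 7 rises had log2 fold changes from 0.49 (AT4TU022870) to 0.92 (AT1TU043740).

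AT1TU045280, which starts at 12986719 on chromosome 1, was the 1 unit whose probes were called both ways. One probe had signals of 9.04, 7.40 and 11.2 in wild type and of 21.4, 25.8 and 19.3 in the mutant (log2 fold change 1.28, limma adjusted p = 0.0162). The other had 5.87, 5.60 and 4.19 in wild type and 2.20, 2.43 and 3.27 in the mutant (-0.99, adjusted p = 0.0394). Neither pair of groups overlapped, and the files used here do not give the position of either probe within the unit.

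**Figure D3:**
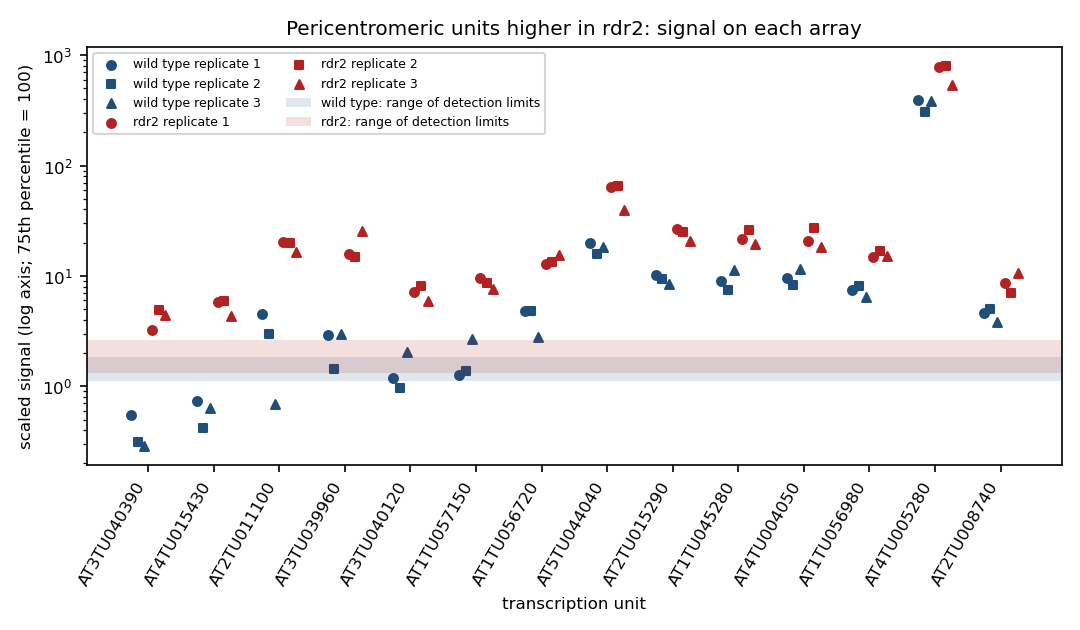
Scaled signal (log axis, 75th percentile of the array = 100) on each of the 6 arrays for the 14 pericentromeric units with the largest fitted rises among those called with no overlap between groups. The ranking used signals as measured, those below background included. Shaded bands give the range, over the arrays of each group, of the lowest signal well above background. Values run from 0.288 for AT3TU040390 in wild type to 797 for AT4TU005280 in the mutant.

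Of these 14 rises, 8 were called whichever single array was left out. Leaving out 1 array ended the call of AT2TU011100 (above) and of 5 others. AT5TU044040 was lost without wild-type replicate 2, mutant replicate 1 or mutant replicate 2 (limma adjusted p = 0.0536 to 0.0638). AT1TU045280 (0.0646 to 0.0719), AT4TU004050 (0.0679 to 0.0899), AT4TU005280 (0.110 to 0.150) and AT2TU008740 (0.0536 to 0.125) were lost without replicate 1 or replicate 2 of either group. With slide as a random block 6 of the 14 were called. Those lost were the same 6 units together with AT3TU039960 (adjusted p = 0.0899) and AT1TU056980 (adjusted p = 0.0636). With normexp background correction the log2 fold changes of the 14 shrank to between 0.29 and 0.99, and 13 were called.

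A stretch of chromosome 3 held 3 of the largest rises. From AT3TU039960 to AT3TU040390, a placed distance of 111 kb, the array carried 8 units. The stretch was chosen after its values were seen, so it is given without a test of its own. In it 5 units were tested and 4 of those had positive log2 fold changes. AT3TU039960 and AT3TU040390 are described above. AT3TU040120, between them, had signals of 1.19, 0.962 and 2.06 in wild type and of 7.18, 8.11 and 5.87 in the mutant. It was 5.25-fold higher (2.39, SE 0.313, limma adjusted p = 0.00842), with 2 of 3 probes called and the third at 1.15 (adjusted p = 0.121). Only 1 wild-type array was above background on the probe shown, so the 5.25-fold rests partly on signals below background. The unit left out by name, AT3TU040020, starts at 11480457 and was at least 8.31-fold higher (adjusted p = 4.43e-05), with no wild-type array above background.

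Not every unit of the stretch moved in that direction. AT3TU040380, placed next to AT3TU040390, had 25.5, 33.5 and 3.87 in wild type and 4.45, 3.65 and 2.40 in the mutant (log2 fold change -2.14, limma adjusted p = 0.148). Its wild-type arrays 1 and 2 were high and wild-type array 3 lay within the mutant range. The remaining 3 units, AT3TU039970, AT3TU040030 and AT3TU040130, were too dim to test. Beyond the stretch AT3TU040430, starting at 11592188, stood at -0.76 (adjusted p = 0.226) and AT3TU040440 at 0.41 (adjusted p = 0.233).

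**Figure D4:**
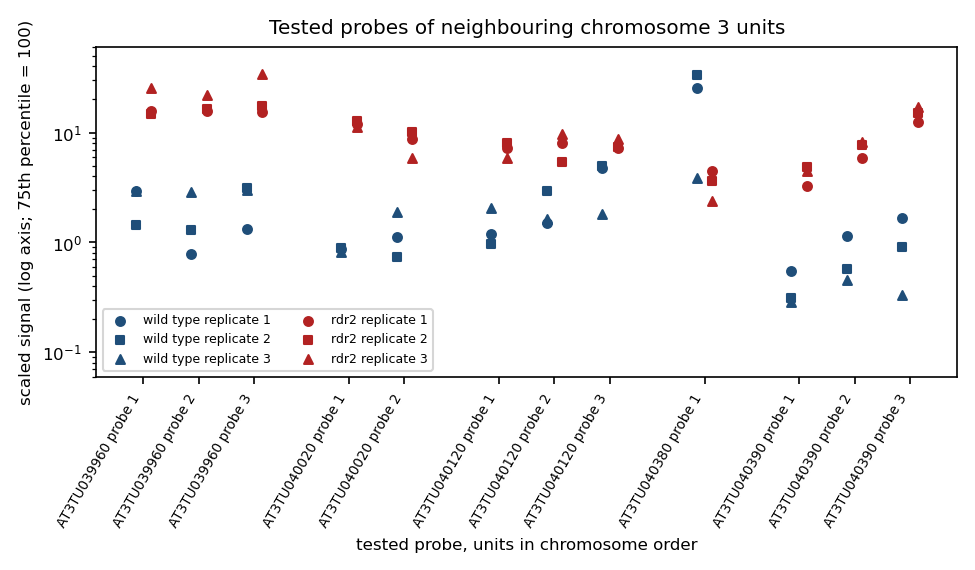
Scaled signal (log axis) on each of the 6 arrays for every tested probe of the chromosome 3 stretch, with units in chromosome order on the horizontal axis. Mutant points lie above wild-type points for all tested probes of AT3TU039960, AT3TU040020, AT3TU040120 and AT3TU040390, and not for the tested probe of AT3TU040380.

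Units that fell often fell below what the mutant arrays could measure. By the probe with the smallest p, 13 of the 26 had no mutant array above background, 7 had 1 or 2, and 6 had all 3. Counting any of their probes, 206 of the 339 tested members were above background on all 3 mutant arrays. Another count, of members on all 3 wild-type arrays with no probe on any mutant array, was 35. The lowest scaled signal well above background was 2.60 and 2.63 on mutant replicates 1 and 2, against 1.84, 1.46 and 1.11 on wild-type replicates 1 to 3 and 1.31 on mutant replicate 3, so small falls of dim units had only a bound. The part of this difference in brightness in the number of falls was not tested.

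On its probe with the smallest p, AT5TU047760 fell below background on every mutant array. It lies between 13985281 and 14065781 on chromosome 5 and had scaled signals of 13.9, 15.3 and 12.3 in wild type and of 0.601, 0.600 and 0.346 in the mutant. It was at least 6.64-fold lower (limma adjusted p = 0.000286). A second probe was at least 3.52-fold lower (adjusted p = 0.00168), also with no mutant array above background. The third, above background on 1 mutant array, stood at -2.25 (adjusted p = 0.0639). AT1TU058220, between 17684411 and 18290218 on chromosome 1, was measured on all 6 arrays, with 37.0, 34.0 and 39.3 in wild type and 6.29, 5.56 and 6.31 in the mutant. It was 6.07-fold lower (log2 fold change -2.60, SE 0.126, adjusted p = 0.000185), and its second probe fell by 1.66 (adjusted p = 0.00256). These 2 falls were called under every alternative in which they were tested.

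AT1TU049140, between 14041692 and 14155657 on chromosome 1, had 19.1, 18.1 and 15.5 in wild type and 3.15, 4.09 and 4.07 in the mutant. It was 4.68-fold lower (log2 fold change -2.23, SE 0.165, limma adjusted p = 0.00112), with 2 of 3 probes called. AT1TU045300, placed between 12986719 and 13014804 and next to AT1TU045280, had 6.98, 7.13 and 8.56 in wild type and 1.33, 0.723 and 1.82 in the mutant. All 3 probes fell, with log2 fold changes of -2.64 (adjusted p = 0.00872) and -2.41 (adjusted p = 0.0196) on 2 of them and at least 1.92-fold (adjusted p = 0.0169) on the other. The first 2 were above background on 1 mutant array each, so their values rest partly on signals below background. On the probes shown, the wild-type values of both units were close together, and their lack of overlap with the mutant values was part of the naming rule. On the other 2 probes of AT1TU049140 wild-type array 3 was the lowest wild-type array, at 10.2 and 6.64. AT5TU037820, between 10705045 and 10805068 on chromosome 5, had 8.68, 11.5 and 10.6 in wild type and 3.81, 2.19 and 2.30 in the mutant (-1.93, adjusted p = 0.00872) on its single tested probe. On the probes with the smallest p, AT1TU049140 and AT5TU037820 were above background on 2 mutant arrays each.

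The 14 largest falls were ranked by fitted log2 fold change, signals below background included. On the probe with the smallest p, the other 9 of them had no mutant array above background, and their folds are lower bounds. Their p-values come from the fit to the signals as measured, those below background included, and do not test the bounds. AT2TU006600, on chromosome 2 between 1692658 and 2209465, had 5.77, 6.74 and 1.92 in wild type and 0.905, 0.913 and 0.707 in the mutant. It was at least 2.03-fold lower (limma adjusted p = 0.0360), with wild-type replicate 3 well below the other wild-type arrays. The second probe of AT2TU006600, above background on every array, stood at -0.54 (adjusted p = 0.345). AT3TU053590 also had a low wild-type array 3, with 3.46, 4.29 and 1.36 in wild type and 0.711, 0.755 and 0.680 in the mutant, and was at least 1.31-fold lower (adjusted p = 0.0421). AT5TU036560 had 3.50, 4.26 and 3.58 in wild type and 1.24, 1.16 and 0.666 in the mutant, and was at least 1.81-fold lower (adjusted p = 0.0102). Its wild-type arrays were close together. The bounds of AT1TU053970 (1.90), AT5TU048730 (1.69), AT1TU057890 (1.45), AT5TU049680 (1.21), AT4TU004300 (1.097) and AT3TU043590 (1.102) were all under 2-fold. Other tested probes of 2 of these units were detected on 1 or 2 mutant arrays and were not called. They stood at -0.35 (adjusted p = 0.247) in AT3TU043590, and at -1.77 (adjusted p = 0.0581) and -1.08 (adjusted p = 0.193) in AT5TU049680.

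Other falls were measured on all 6 arrays. AT4TU019060, between 5353043 and 5715806 on chromosome 4, had 93.0, 84.3 and 87.0 in wild type and 37.1, 37.1 and 43.4 in the mutant (log2 fold change -1.17, limma adjusted p = 0.00456). AT4TU017390 had 16.5, 17.9 and 14.1 in wild type and 7.39, 6.19 and 5.78 in the mutant (-1.32, adjusted p = 0.00665). AT3TU057790, which starts at 16715530 on chromosome 3, had 10.9, 11.4 and 9.16 in wild type and 4.28, 4.29 and 4.78 in the mutant (-1.23, adjusted p = 0.00526). In these 3 units every array of either group was above background. The groups lay apart, as they did in every called member by the probe with the smallest p. These 3 units were outside the rule for the largest changes, which ranked fitted values, and were chosen after their values were seen. Their falls of 2.25-fold, 2.50-fold and 2.35-fold were above the bounds in the preceding paragraph.

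**Figure D5:**
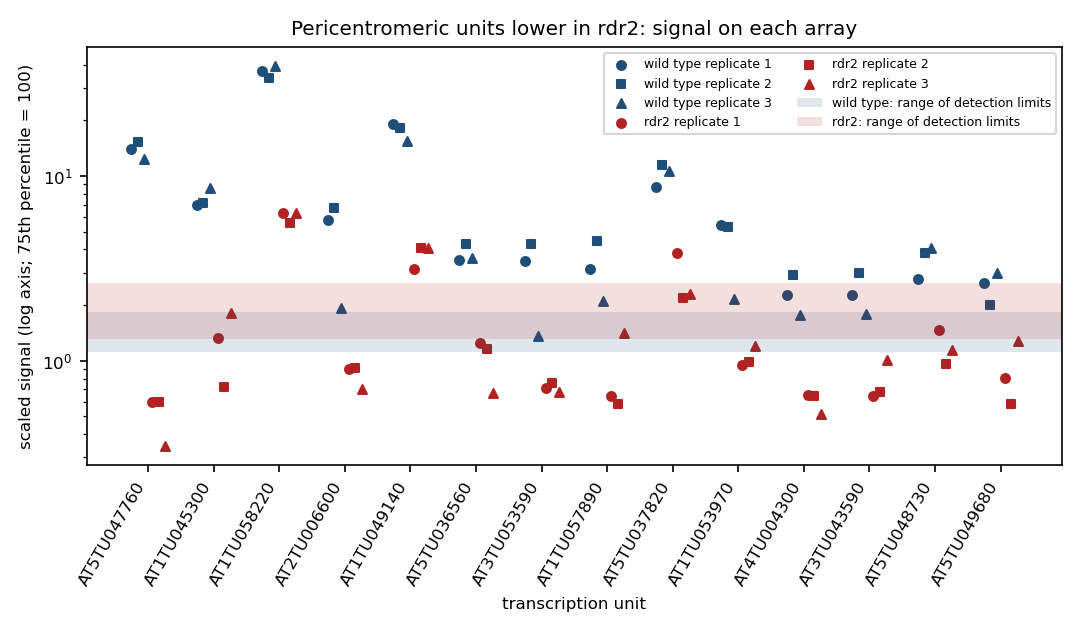
Scaled signal (log axis) on each of the 6 arrays for the 14 pericentromeric units with the largest fitted falls among those called with no overlap between groups. The ranking used signals as measured, those below background included. Shaded bands give the range, over the arrays of each group, of the lowest signal well above background. AT1TU058220 stays above background in the mutant at 5.56 to 6.31, while AT5TU047760 drops below 1 on all mutant arrays.

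Of the 14 falls, 5 were called whichever single array was left out. AT5TU036560 was lost without wild-type replicate 2 (limma adjusted p = 0.0552), AT5TU037820 without the same array (0.0503) and AT5TU048730 without it or without mutant replicate 2 (0.0654 and 0.0503). AT1TU057890 (0.133 to 0.143), AT1TU053970 (0.108 to 0.119), AT3TU043590 (0.0702 to 0.0799) and AT5TU049680 (0.0863 to 0.120) were lost without replicate 1 or replicate 2 of either group. AT2TU006600 (0.0675 to 0.126) and AT3TU053590 (0.0732 to 0.141) were lost without any array but wild-type replicate 3. With slide as a random block 5 of the 14 were called, and AT1TU045300 was among those lost (adjusted p = 0.0980). After quantile normalization 7 were called. With normexp background correction 5 were called, and the fitted log2 fold changes ran from -0.92 to -0.04.

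Probes of 1 unit did not always give the same result. Of the 47 called units, 26 had more than 1 tested probe, and in 22 of these (84.6%, against 81.1% of 90 such arm units) all tested probes had the same sign, called or not. All tested probes were called in 7 of the 26 (26.9%, against 18.9% of arm units). The other 21 units rested on a single tested probe, 9 of the rises and 12 of the falls.

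Neighbours were taken among all tested units of the windows, those left out by name included. Members that were neighbours and both called had opposite directions by the probe with the smallest p, in 5 of 5 pairs. On chromosome 1 the log2 fold changes of AT1TU045040 (-1.25), AT1TU045280 (1.28) and AT1TU045300 (-2.64) alternated, although the second called probe of AT1TU045280 fell with its neighbours. On those probes AT1TU045040 and AT1TU045300 were above background on 1 mutant array each, so their values rest partly on signals below it. AT1TU057150 (2.35) was followed by AT1TU057350, which was at least 1.09-fold lower, and AT1TU057890, at least 1.45-fold lower, by AT1TU058010 (0.85). On chromosome 5 AT5TU048000 (0.77) was followed by AT5TU048730, at least 1.69-fold lower and placed 254 kb away. Same-direction neighbours were found only in pairs with a unit left out by name, namely AT3TU040020 with AT3TU039960 and AT3TU040120, and AT4TU019690 with AT4TU019700 (at least 89.1-fold and 2.76-fold lower). With AT3TU040020 set aside, AT3TU039960 and AT3TU040120, both called higher, would be neighbouring members, so the 5 of 5 depends on how neighbours were taken. The pairs were picked by both units being called, and no share among arm units is given.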

How the data were processed

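Per the file headers, the authors read mutant replicate 3 with version 10.7.3.1 of Agilent Feature Extraction and the other 5 single-colour arrays with version 10.5.1.1. The deposited processed signal is a background-subtracted intensity. The deposited value table holds log2 values that matched the processed signals after a floor of 1, log2 and quantile normalization, within 0.1 for at least 99.86% of probes per array.

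Each array held 15013 probes and 536 control spots. Each array was scaled to its own 75th percentile, taken from 2369 probes that were well above background 6 times out of 6, and log2 was taken. A linear model with genotype only was fitted in limma 3.58.1 (R 4.3.3; lmFit, then eBayes) to the 3345 probes well above background throughout at least 1 group. P-values were adjusted across all of them after Benjamini and Hochberg, and 0.05 was the threshold. The procedure was tested on simulated arrays drawn independently of each other, so that test did not cover arrays that share a slide. A unit took the result of the probe with the lowest p, and this choice makes unit shares higher than probe shares. A fold from a group with no array above background is a bound, against the higher of the probe's own signal and the lowest well-above-background signal per array. Where only part of a group's arrays were above background, the fold uses the signals as measured. The p-value beside a bound comes from the fit to the scaled signals as measured and does not test the bound. In medians a bound under 1 counted as no change. The number of arrays limits the precision. Figures were drawn with matplotlib 3.10.9.

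The named units were the 14 largest rises and 14 largest falls past the threshold with no overlap between groups, the 8 brightest units, and the tested unit nearest to each centre. Rises and falls were ranked by fitted log2 fold change from signals as measured, those below background included. Any further unit was picked with its values in view. The members and lists were chosen with earlier results of these data known. Of 32 listed RNA-directed DNA methylation genes, 4 were on the array: NRPD1 was higher in the mutant (log2 fold change 1.02, limma adjusted p = 0.00413), RDR2 lower, and NRPE1 (-0.32, adjusted p = 0.142) and DCL3 (-0.38, adjusted p = 0.105) did not pass. Replicate numbers did not pair the samples: deviations of same-numbered arrays from their group means correlated at -0.07, 0.02 and -0.02 over 2369 probes. Alternatives covered scaling, background correction, the filter on dim probes, slide, replicate number, threshold, window and each array left out. Normexp (offset 50) used median spot signals.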

Additional observations from a re-analysis of the deposited data

How the results depend on the processing

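Counts below are given as higher and lower, and the cause of each shift was not tested unless the setting itself tests fewer samples, units or probes. Scaling and background correction changed mostly the lower calls; normexp kept the count over all probes within 1.5 times of 284. Member units called lower numbered 14 after quantile normalization, 9 with the 75th percentile of all probes, 12 with normexp and 14 from the authors' table. Member probes called lower numbered 20, 11, 19 and 20, arm units 36, 11, 33 and 36, and all tested probes 146, 36, 242 and 138; median scaling gave 186. The median log2 fold change of tested member probes was -0.031 after quantile normalization, -0.31 with median scaling, 0.21 when all probes set the scale, -0.017 with normexp and -0.031 for the deposited values. The sign thus turned with scaling on all probes, where the median of all tested probes was 0.35 against -0.26 in the main setting.

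Without a filter on dim probes 4 and 3 member units, 5 and 4 member probes, 8 and 2 arm units and 39 and 20 of all probes were called, and the median turned to 0.25. With probes above background on at least 1 array these were 4 and 3, 5 and 5, 8 and 6, and 45 and 34, with a median of -0.60. With probes above background on all 6 arrays the counts were 18 and 12 of 199 member units, 21 and 17 of 265 member probes, and 56 and 57 of 551 arm units. The median was -0.060, and rises outnumbered falls among members. This filter leaves out probes below background on any array. In the main setting 13 of 26 called falls had no mutant array above background and 7 had 1 or 2. Of 21 called rises, 2 had no wild-type array above background and 4 had 1 or 2.

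With slide as a random block 6 and 8 member units, 8 and 11 member probes, 8 and 11 arm units and 57 and 55 of all probes were called. Averaging arrays of a shared slide gave 2 and 2, 2 and 2, 5 and 3, and 29 and 16, with a median of -0.31. With the replicate number as a block, although the numbers did not pair the samples, 4 and 12 member units, 8 and 15 member probes, 9 and 20 arm units and 58 and 71 of all probes were called. The unmoderated test called 60 arm units lower. At adjusted p 0.01 the counts were 7 and 10, 10 and 14, 14 and 17, and 71 and 78. Without the 2 dimmest arrays, which leaves 1 mutant array assumed to vary like the wild-type arrays, limma called 0 and 4 member units, 0 and 6 member probes, 3 and 12 arm units and 26 and 37 of all probes; at an unadjusted p of 0.05, 28 and 59 of 339 member units passed. Within 2 Mb of the centres 7 and 14 units and 9 and 17 probes were called, with 58 units tested in the inner 1 Mb and 142 from 1 to 2 Mb. Over all 1862 tested transcripts 5.85% and 10.7% were called. Among units with a stated start 4 and 3 units and 6 and 4 probes were called, and the number tested among them is not given here. Testing the mean of a unit's probes called 13 units higher.

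Leaving out each array in turn gave 8 to 40 member units higher and 9 to 136 lower, 13 to 50 member probes higher and 13 to 152 lower, 16 to 100 arm units higher and 17 to 386 lower, and 77 to 277 of all probes higher and 75 to 770 lower. The median of member probes ran from -0.62 to -0.27 and the log2 fold change of RDR2 from -2.75 to -2.62. Against negative controls, detection of member probes moved to 47.0% on wild-type replicate 2 and to 22.8%, 17.3% and 42.8% on mutant replicates 1 to 3. None of the 28 named rises and falls reversed under any alternative run. Signal over background limits the dim units: most members were not measured on all arrays of either group.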
